A study of Mus musculus with 10 samples.

Results

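The NF-kB system was described in 10 mouse embryonic stem cell (ESC) lines through 10 genes, which encode 4 of its DNA-binding subunits, 3 IkB inhibitors and 3 regulators that act on its kinases. The genes were chosen by symbol from the 20206 genes of the deposited table, and all 10 were found, each in a single row of its own that shares its values with no other gene. The subunits are Nfkb1, Nfkb2, Rela and Relb, the inhibitors are Nfkbia, Nfkbib and Nfkbie, and the regulators are Tnfaip3, Birc3 and Map3k14. The question was whether their transcripts differ between lines whose mothers ate a different amount of protein before implantation.

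The 5 lines named LPD came from blastocysts of C57BL/6 mothers fed a low protein diet (9% casein), and the 5 NPD lines came from mothers fed a normal protein diet (18% casein). The mothers were 7 to 9 weeks old, were mated with C57BL/6 males, and ate the diet until embryonic day 3.5. The cells are wild-type, labelled male, and according to the methods each line came from a different mother, was grown with leukaemia inhibitory factor and serum replacement, and was sequenced as poly(A)-selected RNA at passage 9 to 12 after growth in medium free of fibroblasts. Lines are called here by diet and line number, LPD lines 1, 4, 6, 20 and 40 and NPD lines 8, 15, 21, 36 and 51, and each is 1 replicate, so n = 5 per diet throughout.

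NF-kB dimers are held in the cytoplasm by IkB proteins until an IkB kinase complex marks the inhibitor for destruction, after which the dimer enters the nucleus and binds kappa B sites in DNA. The genes for several IkB proteins and for the ubiquitin-editing enzyme Tnfaip3 are themselves targets, so the response limits itself. A slower, non-canonical branch runs through the kinase Map3k14, processing of the Nfkb2 precursor and Relb, and undifferentiated ESCs are known for a low NF-kB response to inflammatory signals.

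Each value is an estimated read count per gene that the authors normalized between lines and deposited. The NPD lines held 20365221 to 23180999 read equivalents (the depth estimated from the low values), LPD lines 1 and 20 held 21871696 and 24183769, and LPD lines 6, 40 and 4 were shallower at 12346099, 11247566 and 5847810. A pair of lines stood apart from the male label, since the Y-linked gene Ddx3y was at 7.70 in NPD line 15 and at 174 in LPD line 4, against 1110 to 1493 in the other lines. These lines departed differently, since 334 X-linked genes had a median log2 deviation of 0.49 in NPD line 15 and of 0.00 in LPD line 4. All 10 markers of pluripotent cells that were looked up were high in every line, with a sum of 104872 to 136279 in LPD and 99300 to 135936 in NPD lines, and 0 of them differed at an unadjusted p under 0.05. The sum of 10 fibroblast markers was 393 to 3537 in LPD and 499 to 6021 in NPD lines, highest in NPD line 15. Among them, Col1a1 was present in every line, at 131 to 2709, and Dcn, Lum and Postn were listed at 0 in at least 1 line. The sum of the 7 macrophage markers in the table was 202 to 223 in LPD and 181 to 252.2 in NPD lines. Of these, Cd68 was at 61.6 to 141 over the 10 lines and Ptprc, which marks white blood cells, at no more than 8.01. Results are given with LPD line 4 and NPD line 15 and, where named, without them.

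The promoters of 8 of the 10 genes were in the RefSeq table of GRCm38.p6, from 250 bases before to 50 after each start, and Nfkb1 and Relb were not in it. They were searched on both strands for the kappa B consensus of 10 bases, which is GGG, a purine, any base, 3 pyrimidines and CC. It was found for 3 of the 8 genes, Nfkb2, Nfkbia and Tnfaip3, and for 6.55% of all 27025 genes with a promoter. By promoter, 5 of 11 held it, against 5.81% of all 32851, and 2 of the 5 are overlapping Nfkb2 promoters that hold the same match. Matches within the 120 bases before a start site are shown because they lie in the genes for a subunit, an inhibitor and a feedback enzyme whose values are compared below. Each is read 5′ to 3′ on the strand of its gene, with the match in capitals. The stretches of Nfkbia and Tnfaip3 are the 120 bases before the start, without an annotated exon in GENCODE M21, and those of Nfkb2 are 30 and 21 bases about its matches, which lie in the untranslated first exon of a longer Nfkb2 transcript and in an exon of an antisense transcript.
Nfkbia promoter, chr12:55492648-55492767, minus strand: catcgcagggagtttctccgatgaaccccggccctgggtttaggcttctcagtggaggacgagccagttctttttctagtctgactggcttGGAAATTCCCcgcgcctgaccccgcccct
Tnfaip3 promoter, chr10:19015411-19015530, minus strand: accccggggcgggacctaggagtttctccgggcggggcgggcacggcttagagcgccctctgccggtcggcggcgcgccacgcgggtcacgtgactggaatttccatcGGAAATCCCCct
Nfkb2 far match, chr19:46304688-46304717, plus strand: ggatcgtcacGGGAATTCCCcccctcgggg
Nfkb2 near match, chr19:46304716-46304736, plus strand: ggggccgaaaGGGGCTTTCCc
The match of Nfkbia begins at position -29 from the start site and that of Tnfaip3 at -12, both on the strand opposite to the gene. The printed matches of Nfkb2 begin at -39, where the sequence is its own reverse complement, and at -11. A further Nfkb2 match, not printed, begins at 10 from a start site downstream and at -225 from the next. In Rela, Nfkbib, Nfkbie, Birc3 and Map3k14 these letters were not in the window searched. A match is a string of letters, and no binding was measured.

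Per kilobase of the longest annotated transcript, Nfkb1 had the highest level of the 10 genes, with a normalized value per kilobase of 357 ± 64.3 (mean ± SD over the 10 lines). It encodes the precursor of the short subunit that commonly pairs with Rela. The IkB genes Nfkbib and Nfkbia followed at 296 ± 39.7 and 289 ± 57.0 per kilobase, and their order was not stable, since Nfkbib was the higher of the pair in 6 of 10 lines. Rela, the main activating subunit, stood at 208 ± 51.2 per kilobase and was below Nfkbia in 10 of 10 lines. Nfkb2 and Relb, the non-canonical pair, were level at 88.1 ± 33.8 and 86.0 ± 45.5 per kilobase, with Nfkb2 higher in 4 of 10 lines. Nfkbie at 47.9 ± 30.5 and Birc3 at 36.2 ± 14.6 per kilobase also exchanged places, with Nfkbie higher in 6 of 10 lines. Map3k14 at 11.4 ± 4.18 and Tnfaip3 at 7.39 ± 4.48 per kilobase were the lowest. Percentiles were taken among the genes tested that have an annotated transcript length. The mean level of Nfkb1 lay at percentile 76.3, that of the inhibitor Nfkbie at 33.5 and that of Tnfaip3 at 8.70. The ESC lines thus held moderate transcript levels of the classical subunits and of the inhibitors Nfkbia and Nfkbib. Levels of Nfkbie were lower, and those of the feedback enzyme and the non-canonical kinase were low.

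**Figure D1:**
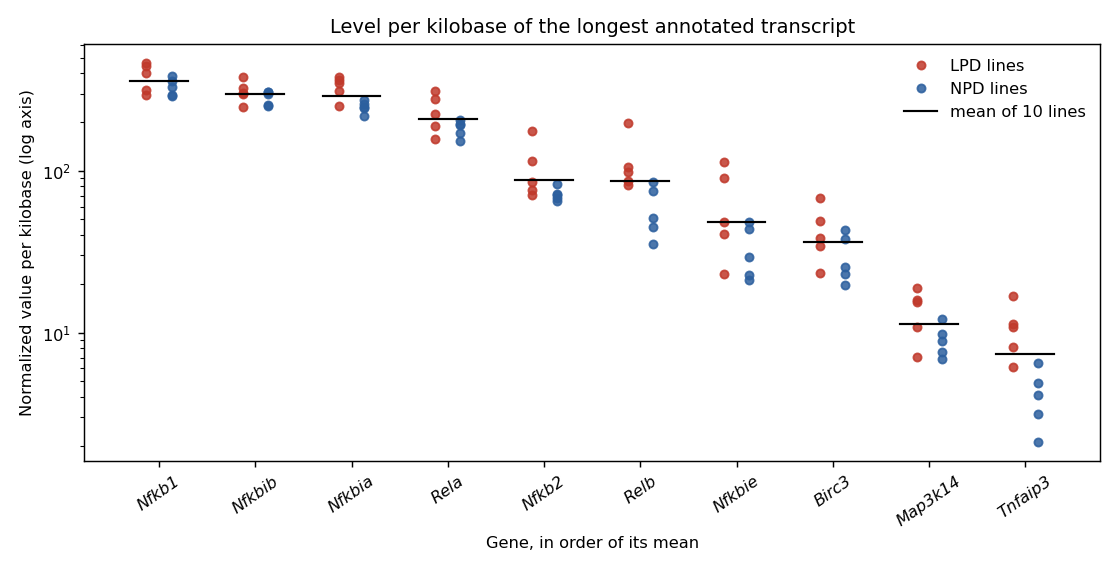
Normalized value per kilobase of the longest annotated transcript for each of the 10 genes (log axis), with a point for each LPD (red) and NPD (blue) line and a bar at the mean of the 10 lines. The genes run from Nfkb1 at 357 to Tnfaip3 at 7.39 per kilobase, and Nfkbib with Nfkbia, Nfkb2 with Relb, and Nfkbie with Birc3 have nearly the same level.

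The diets were compared with limma on log2(value + 1) over the 14354 genes with a mean value of at least 10, and each of the 10 genes passed this filter. Log2 fold changes are LPD minus NPD on that scale, with a standard error (SE), and they understate changes in genes with low values. All 10 genes had a log2 fold change above 0, against 50.5% of all genes tested, and their median was 0.47, against 0.00 over all genes. Relb, Nfkbia and Tnfaip3 were higher in LPD at an unadjusted p under 0.05 (3 of 10, where 2.84% of all genes were), and 0 of 10 were lower (2.18% of all genes). After Benjamini-Hochberg adjustment over all genes, 0 of the 10 had an adjusted p under 0.1 (limma, smallest 0.537), as was so for all genes tested (0.0%), of which 721 had an unadjusted p under 0.05. In other settings of limma this count over all genes was 40 without LPD line 40 and at most 1 otherwise, and it held none of the 10 genes. For a single gene, 5 lines against 5 allow an exact permutation p no smaller than 0.00794. In bulk RNA, fewer cells of a type and less RNA per cell cannot be told apart.

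**Figure D2:**
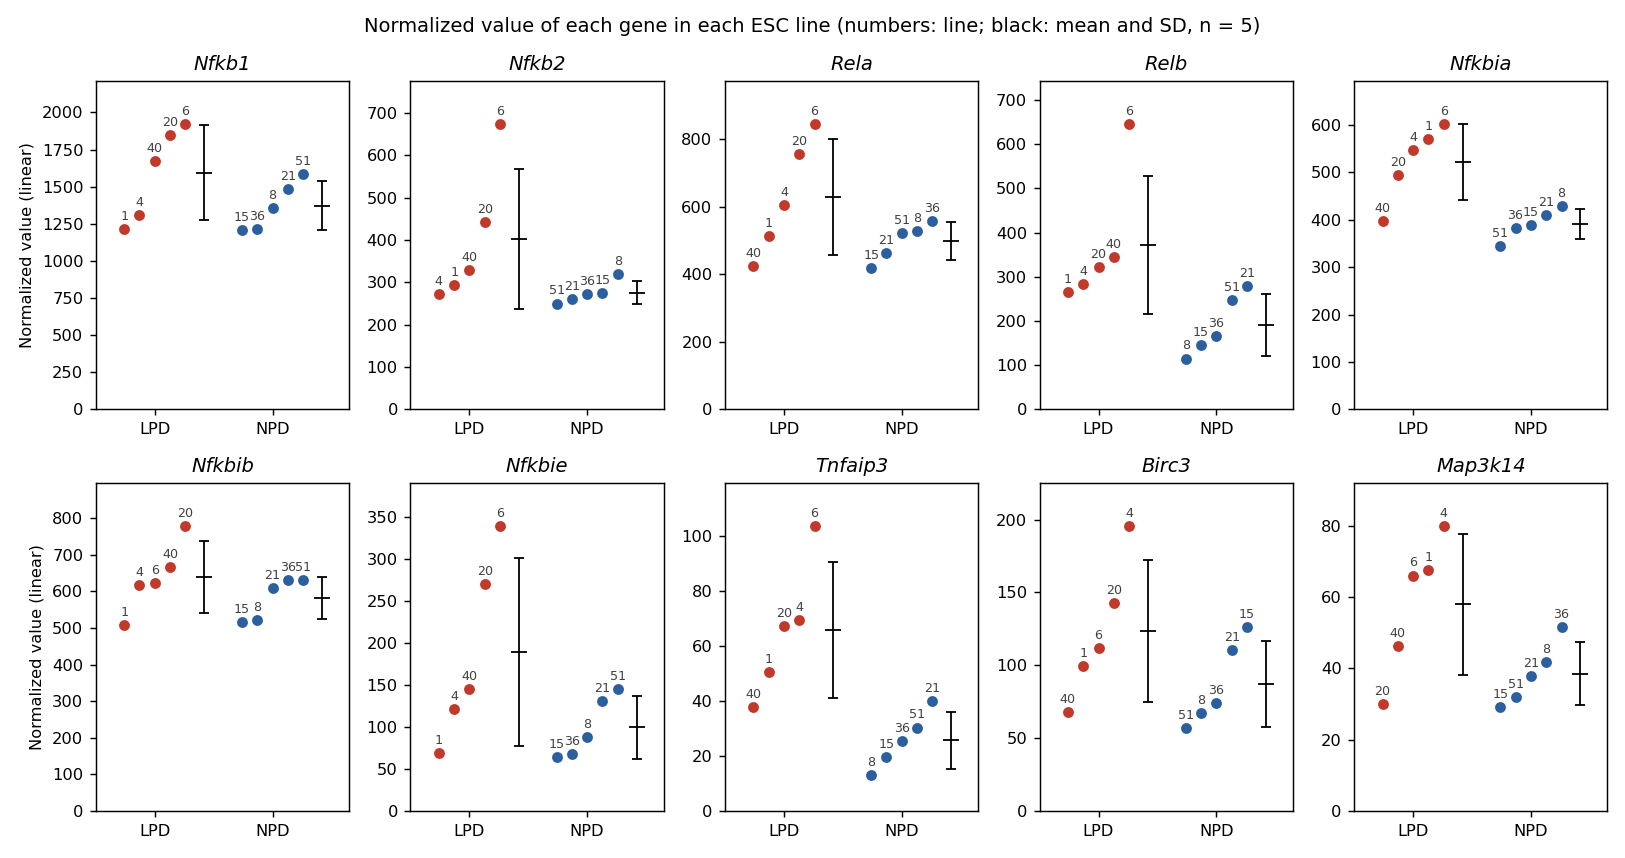
Normalized value (linear axis from 0) of each of the 10 genes in each ESC line, with LPD lines in red and NPD lines in blue, each point numbered by its line, and the mean and SD of the 5 lines of a diet in black. The highest point is an LPD line in all 10 panels, LPD line 6 in 7 of them, and the diets overlap in every panel.

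Relb was the subunit with the clearest difference (chromosome 7, 19606217 to 19629438, GRCm38, minus strand). It encodes the activating partner of processed Nfkb2 in the non-canonical branch. Its normalized values were 266, 284, 646, 321 and 344 in LPD lines 1, 4, 6, 20 and 40, and 115, 146, 279, 167 and 247 in NPD lines 8, 15, 21, 36 and 51. In all, 4 LPD lines lay above every NPD line, and the overlap came from LPD line 1, just below NPD line 21. The mean was 372 ± 156 in LPD and 191 ± 69.4 in NPD, a 1.95-fold ratio and a log2 fold change of 0.96 (SE 0.28, two-sided exact permutation p = 0.0159, limma adjusted p = 0.665). LPD line 6 alone was far above the rest, and leaving it out gave a log2 fold change of 0.74, with the unadjusted p still under 0.05. With the depth of each line as a covariate it was 0.93.

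Nfkb2, the precursor that pairs with Relb, had LPD values of 294, 273, 674, 441 and 330 and NPD values of 319, 275, 260, 272 and 249.7, in the same order of lines. The NPD lines were close together, while LPD lines 6 and 20 were well above them and LPD lines 1 and 4 were among them. The mean was 402 ± 165 in LPD and 275 ± 26.7 in NPD, with a log2 fold change of 0.47 (SE 0.22, two-sided exact permutation p = 0.0556). Leaving out LPD line 6 lowered it to 0.26. Nfkb2 (chromosome 19, 46304320 to 46312385, plus strand) shares 11.6% of its exon bases with the antisense transcript AC114539.1 and 6.52% with Psd on the other strand, and the library is not stated to keep strand, so those reads are uncertain.

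Nfkb1 and Rela, the classical pair, differed between the diets by amounts within their spread. Nfkb1 (chromosome 3, 135584655 to 135691547) had 1212, 1307, 1923, 1849 and 1673 in the LPD lines and 1359, 1209, 1486, 1217 and 1585 in the NPD lines. LPD lines 6, 20 and 40 were above every NPD line, and LPD lines 1 and 4 were in the lower part of the NPD range. Its log2 fold change was 0.20 (SE 0.14, two-sided exact permutation p = 0.214). Rela (chromosome 19, 5637483 to 5648130) had 513, 606, 846, 755 and 426 in the LPD lines and 529, 417, 464, 559 and 522 in the NPD lines. Here LPD lines 4, 6 and 20 were above every NPD line, but LPD line 40 was near the lowest NPD line. The log2 fold change of Rela was 0.30 (SE 0.17, two-sided exact permutation p = 0.183). Both were smaller without LPD line 6, at 0.13 for Nfkb1 and 0.18 for Rela. Set against Rela within each line, Relb was at a log2 ratio of -0.79 ± 0.42 in LPD and -1.46 ± 0.57 in NPD lines, ranges that overlap by their SD.

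Rel, the remaining subunit of the family, which is best known in lymphocytes, was low at 106 ± 32.5 in LPD and 69.9 ± 25.5 in NPD (SD, n = 5). Its log2 fold change of 0.60 (SE 0.29) narrowly missed the threshold (limma, unadjusted p = 0.0582), with a two-sided exact permutation p of 0.111. It came under the threshold with quantile normalization, with array weights, without LPD line 40 and without NPD line 8. Thus all 5 subunit genes were above 0 on the log2 scale, and 1 of 5 had an unadjusted p under 0.05.

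Nfkbia, the inhibitor that is resynthesized fastest after activation, differed by a smaller ratio but with little spread (chromosome 12, 55489410 to 55492647). Values were 570, 547, 603, 494 and 398 in LPD lines 1, 4, 6, 20 and 40, and 430, 389, 409, 383 and 345 in NPD lines 8, 15, 21, 36 and 51. LPD lines 1, 4, 6 and 20 were all above every NPD line, and LPD line 40 was below NPD lines 8 and 21. The mean was 522 ± 80.0 in LPD and 391 ± 31.9 in NPD, a ratio of 1.34 and a log2 fold change of 0.41 (SE 0.13, two-sided exact permutation p = 0.0238, limma adjusted p = 0.684). Unlike Relb and Nfkb2, Nfkbia had no LPD line far above the others, and its log2 fold change was 0.35 without LPD line 6. The adjusted p was 0.161 without LPD line 40, the smallest of any of the 10 genes in any setting.

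Nfkbie, an inhibitor that holds Rela and Rel dimers, varied most among the inhibitors (chromosome 17, 45555703 to 45563169). Its values were 69.0, 122, 339, 269 and 145 in the LPD lines and 88.1, 63.9, 131, 67.9 and 145 in the NPD lines. Only LPD lines 6 and 20 were above every NPD line, and LPD line 1 was among the 3 lowest of the 10 lines. Its log2 fold change came to 0.78 (SE 0.40, two-sided exact permutation p = 0.167), close to the SD of 0.75 among lines within the diets. Without LPD line 6 it was 0.51. Nfkbib, which is degraded more slowly, had 507, 617, 622, 780 and 666 in the LPD lines and 522, 516, 610, 630 and 631 in the NPD lines (chromosome 7, 28758251 to 28767512). Its lowest value was in LPD line 1, the only one of the 10 genes whose lowest line was not an NPD line. The log2 fold change of 0.13 (SE 0.12, two-sided exact permutation p = 0.341) was the smallest of the 10, and moved between 0.05 without LPD line 20 and 0.20 without LPD line 1. Nfkbib shares 14.5% of its exon bases with Ccer2 and 1.94% with Sirt2 on the other strand.

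The genes of the atypical IkB proteins, which work in the nucleus, gave differences near 0. Nfkbid was at 66.3 ± 25.9 in LPD and 60.1 ± 11.7 in NPD lines (SD, n = 5). Nfkbiz was at 73.8 ± 13.7 and 85.4 ± 29.2, and Bcl3 at 740 ± 192 and 794 ± 258. Their log2 fold changes were 0.07, -0.17 and -0.08, so of the 6 inhibitor genes listed 4 were above 0 and only Nfkbia had an unadjusted p under 0.05.

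Tnfaip3, the deubiquitinase that shuts off signalling upstream of the IkB kinases, had the largest log2 fold change of the 10 genes (chromosome 10, 19000910 to 19015657). Its values were 50.7, 69.6, 104, 67.5 and 37.9 in LPD lines 1, 4, 6, 20 and 40, and 13.1, 19.5, 40.1, 25.5 and 30.4 in NPD lines 8, 15, 21, 36 and 51. Again 4 LPD lines exceeded every NPD line, and LPD line 40 was just below NPD line 21. The mean was 65.9 ± 24.9 in LPD and 25.7 ± 10.3 in NPD, a 2.56-fold ratio and a log2 fold change of 1.34 (SE 0.35, two-sided exact permutation p = 0.0159, limma adjusted p = 0.537). By unadjusted p, Tnfaip3 ranked 53 of the 14354 genes. It is also the gene measured on the fewest reads, from 16.7 read equivalents in NPD line 8 to 89.0 in LPD line 20, with 24.2 and 24.0 in LPD lines 4 and 40. Without LPD line 6 the log2 fold change was 1.16, and with the depth of each line as a covariate it was 1.30.

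**Figure D3:**
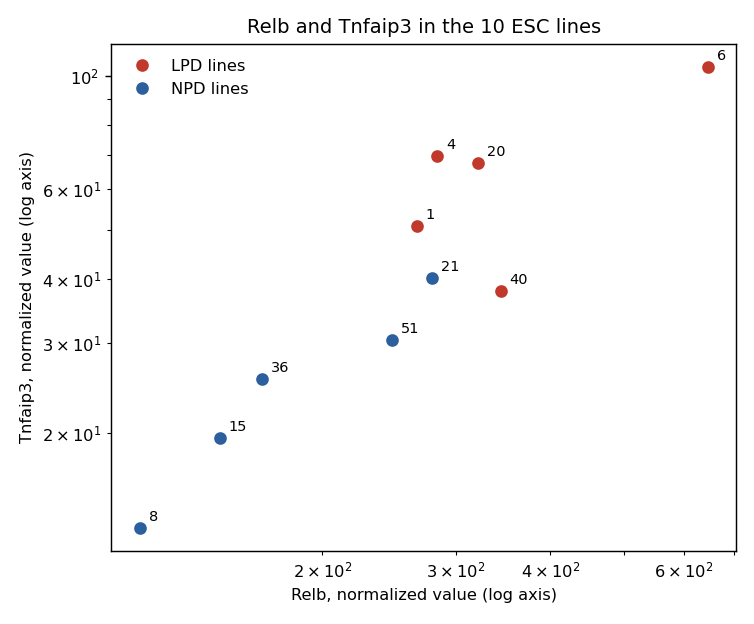
Normalized value of Tnfaip3 against that of Relb in the 10 ESC lines (both axes log), LPD in red and NPD in blue, each point numbered by its line. NPD line 8 is lowest and LPD line 6 highest for both genes, and NPD line 21 and LPD line 40 lie side by side where the diets meet.

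Map3k14, the NF-kB inducing kinase that drives Nfkb2 processing, had 67.7, 80.0, 66.0, 30.1 and 46.2 in the LPD lines and 41.8, 29.1, 37.8, 51.5 and 32.0 in the NPD lines (chromosome 11, 103219762 to 103267472). LPD lines 1, 4 and 6 were above every NPD line, while LPD line 20, high for the subunits and for Nfkbie, was the lowest LPD line and level with NPD line 15. The log2 fold change was 0.53 (SE 0.29, two-sided exact permutation p = 0.103). Its highest value came from LPD line 4, the shallowest library, on 27.8 read equivalents, and the log2 fold change was 0.25 with depth as a covariate, 0.31 without LPD line 4 and NPD line 15 together, and 0.74 without LPD line 20. From the same RNA sequencing, tested by transcript, the authors reported Map3k14 as reduced in LPD, with no significant change by qRT-PCR. The direction here is the opposite, and the values here are per gene, so the measures are unlike. Birc3, a ubiquitin ligase that helps to keep Map3k14 protein low and is itself a known NF-kB target, had 99.1, 196, 112, 143 and 67.9 in the LPD lines and 67.3, 126, 111, 74.2 and 57.0 in the NPD lines (chromosome 9, 7848699 to 7873186). LPD lines 4 and 20 were above every NPD line, and the other LPD lines were spread through the NPD range. The log2 fold change of 0.48 (SE 0.30, two-sided exact permutation p = 0.190) was within the spread of the lines, and was 0.29 without LPD line 4. The order of lines therefore differed between Map3k14, Birc3 and the subunits, although all were above 0.

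**Figure D4:**
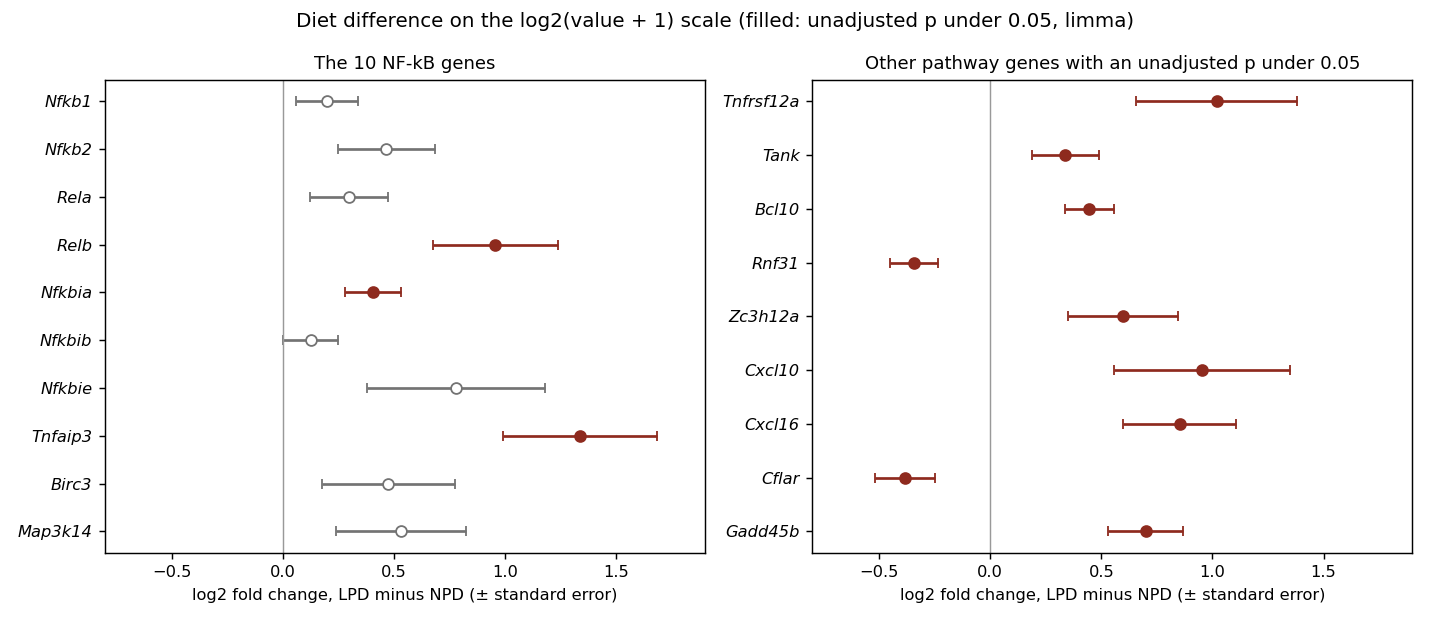
Log2 fold change of LPD minus NPD with its standard error on the log2(value + 1) scale, for the 10 NF-kB genes (left) and for the other pathway genes with an unadjusted p under 0.05 (right), filled where limma gave an unadjusted p under 0.05. All 10 genes lie right of 0, from 0.13 for Nfkbib to 1.34 for Tnfaip3, and Rnf31 and Cflar lie left of 0.

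Line by line, the 10 genes were highest together in LPD line 6. It was the highest line for 7 of the 10 genes (13.3% of all genes had their highest value there), and the median deviation of the 10 genes from the median of all lines was 0.63 on the log2 scale, with 10 of 10 above it. LPD line 20 came next with a median deviation of 0.41 and 9 of 10 above. LPD lines 4 and 40 were at 0.13 and 0.09, and LPD line 1 at -0.03 with 4 of 10 above, so this line was no higher than the middle of the series. The NPD lines were at -0.16, -0.30, 0.01, -0.18 and -0.17 for lines 8, 15, 21, 36 and 51. NPD line 15 was the lowest line for 4 genes, and NPD line 21 was the highest NPD line, between LPD lines 1 and 40. The values were scaled between lines before deposit, so these deviations are relative to the other genes of each line.

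**Figure D5:**
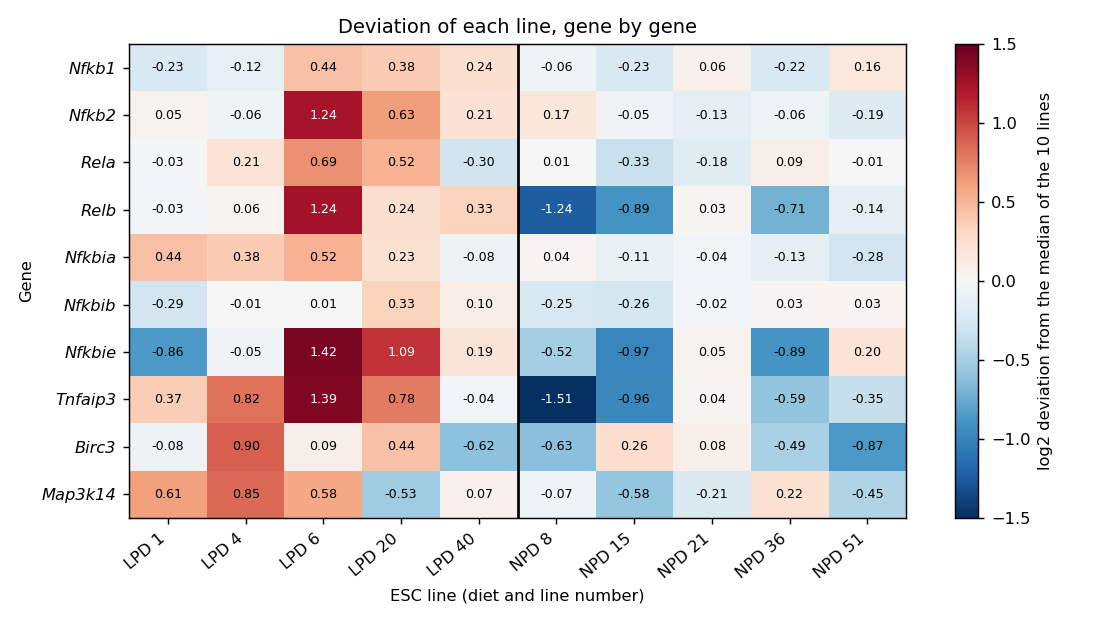
Log2 deviation of each ESC line (columns, LPD left of the black line and NPD right) from the median of the 10 lines for each of the 10 genes (rows), red above and blue below that median. LPD line 6 is above the median in every row, though by only 0.01 for Nfkbib. NPD line 15 is below it in every row but Birc3, though by little for Nfkb2 (-0.05).

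LPD line 6 also stood out among marker genes of other cell types. Its sum of 8 trophectoderm markers was 10414, against 3350 to 4929 in the other LPD lines and 3135 to 6382 in NPD lines, with Elf5 at most at 6.18 in any line. The keratin genes Krt8 and Krt18 made up 7631 of it, and the 6 other trophectoderm markers summed to 2783 in LPD line 6, within the 2195 to 4417 of the 10 lines. Its sum of 10 fibroblast markers, 3537, was the highest of the LPD lines, and its sum of 8 primitive endoderm markers, 3403, the lowest of them. Over the diets, the primitive endoderm markers summed to 3403 to 21357 in LPD and 2075 to 15623 in NPD lines, with 8 of 8 above 0, a median log2 fold change of 0.51, 0 at an unadjusted p under 0.05 and Foxa2 listed at 0 in 1 line. The fibroblast markers went the other way, with 7 of 8 tested below 0, a median log2 fold change of -0.87 and 0 at an unadjusted p under 0.05. Whether cells of these types were present was not measured, and any part of them in the NF-kB values was not tested. Without LPD line 6, 10 of 10 genes were still above 0 and Relb, Nfkbia and Tnfaip3 again had an unadjusted p under 0.05. Without LPD line 4 and NPD line 15 together, Nfkb2 joined these 3, and the log2 fold changes of Relb, Nfkbia and Tnfaip3 were 0.96, 0.38 and 1.23.

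None of the 10 genes had every LPD line above every NPD line (0 of 10), which 0.523% of all genes had, while 0.495% had every LPD line below. In 7 of the 10 genes at least 3 LPD lines were above every NPD line, against 10.6% of all genes. The LPD lines also differed more among themselves. The SD of the log2 values was larger in LPD than in NPD lines for 8 of the 10 genes, but this was so for 66.8% of all genes, so the share of the 10 was near that of the table. The gap was widest for Nfkb2, with an SD of 0.53 in LPD and 0.13 in NPD lines. For Relb and Tnfaip3 the NPD lines varied as much, with SDs of 0.51 and 0.53 for Relb and of 0.54 and 0.59 for Tnfaip3 in LPD and NPD.

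Pairs of the genes were then compared across lines after the mean of each diet was taken away. These correlations of log2 values are descriptions over 10 lines that share their libraries and depths. Of 45 pairs, 32 were positive, with a median r of 0.36, and without LPD line 6 it was 25 pairs and a median of 0.21. The closest pair was Nfkb1 and Nfkbie (r = 0.95 within diets, 0.94 without LPD line 6), a subunit gene and an inhibitor gene on different chromosomes. Relb and Tnfaip3 came next (r = 0.82 within diets, 0.75 without LPD line 6). This place depended on LPD line 6, since without it Nfkbib with Nfkbie (r = 0.83) and Nfkb1 with Nfkbib (r = 0.78) were closer. For Map3k14, r within diets was -0.52 to Nfkb1, -0.16 to Nfkb2, 0.07 to Rela, -0.04 to Relb and 0.51 to Nfkbia. Without LPD line 6, r was -0.74, -0.67, -0.09, -0.27 and 0.47 in the same order.

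The 3 genes that varied most over the lines were Tnfaip3, Nfkbie and Relb, with SDs of 0.88, 0.82 and 0.70 on the log2 scale, against a median of 0.27 over all genes tested. Among all 14354 genes, those most like Tnfaip3 over the 10 lines were Maff, a small Maf factor (Pearson r = 0.95, Spearman rho = 0.93), the gap junction gene Gjc1 (r = 0.94, rho = 0.92) and the Krüppel-like factor Klf5 (r = 0.94, rho = 0.95). Those most like Nfkbie were Vcl, which encodes vinculin (r = 0.97, rho = 0.92), Plekhg2 (r = 0.97, rho = 0.99) and the cohesin gene Rad21 (r = 0.97, rho = 0.95). Those most like Relb were Tax1bp3 (r = 0.96, rho = 0.89), Pdcl3 (r = 0.95, rho = 0.84) and Ist1 (r = 0.95, rho = 0.94). Each r stayed at 0.86 or above without the 2 lines farthest from the median of the NF-kB gene. Unlike in the pairs above, the mean of each diet was not taken away, so a shared diet difference is part of each r. These are the highest of many, so they describe these lines only.

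Around the 10 genes, 103 other genes of the pathway were looked up in 6 lists, 99 were in the table and 87 passed the filter. Of the 87, 46 were above 0 and the median log2 fold change was 0.02. At an unadjusted p under 0.05, 7 of 87 were higher and 2 of 87 lower in LPD, where 2.84% and 2.18% of all genes were. None had an adjusted p under 0.1 (limma, smallest 0.440). In 2 of 87 every LPD line was above every NPD line, and in 2 of 87 below (0.523% and 0.495% of all genes). The same shares of all genes apply to the counts by list below. By sign, the log2 fold changes thus lay about evenly on either side of 0, while more genes were called higher than lower.

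Among 13 tested ligands, receptors and adaptors, 1 was higher at an unadjusted p under 0.05 and 0 were lower, and 7 were above 0. It was Tnfrsf12a, the receptor for the ligand Tnfsf12 and a known input to the non-canonical branch. Its values were 704 ± 504 in LPD and 289 ± 39.3 in NPD lines (SD, n = 5), with a log2 fold change of 1.02 (SE 0.36, two-sided exact permutation p = 0.0317). LPD line 6 was the highest at 1515, as it was for Relb and Nfkb2. Tnf itself, the founding ligand of the pathway, was at 0 to 3.84 in every line.

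In the kinase machinery, 25 genes other than Map3k14 and Birc3 were tested, with 14 above 0, 2 higher and 0 lower at an unadjusted p under 0.05. Bcl10, an adaptor between receptors and the IkB kinases, was at 918 ± 140 in LPD and 669 ± 45.4 in NPD lines, and each of its 5 LPD values exceeded each NPD value. Its log2 fold change was 0.45 (SE 0.11, two-sided exact permutation p = 0.00794, the smallest possible, limma adjusted p = 0.451). Tank, a scaffold that binds Traf proteins, was at 266 ± 46.9 and 209 ± 26.4, with a log2 fold change of 0.34 (SE 0.15), which was 0.16 and above the threshold with depth as a covariate. The other kinase genes had log2 fold changes of -0.27 to 0.63.

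Among 20 further regulators, 11 were above 0, with 1 higher and 1 lower at an unadjusted p under 0.05. Zc3h12a, an RNase that destroys inflammatory transcripts and is a known target of NF-kB, was at 489 ± 123 in LPD and 332 ± 120 in NPD lines (log2 fold change 0.60, SE 0.25). Rnf31, the catalytic part of the complex that builds linear ubiquitin chains, was lower, at 688 ± 79.0 against 871 ± 89.8. All 5 LPD lines were below every NPD line for Rnf31, with a log2 fold change of -0.34 (SE 0.11, limma adjusted p = 0.723). With depth as a covariate, neither Zc3h12a nor Rnf31 had an unadjusted p under 0.05, with log2 fold changes of 0.59 and -0.25.

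Of 25 tested target genes, 12 were above 0 and the median log2 fold change was -0.02. At an unadjusted p under 0.05, 3 were higher and 1 lower. Gadd45b, a survival and stress gene, was at 1097 ± 215 in LPD and 677 ± 152 in NPD lines, with a log2 fold change of 0.70 (SE 0.17, limma adjusted p = 0.440). Cxcl16, a membrane-bound chemokine, was at 183 ± 48.6 and 101 ± 27.7, with a log2 fold change of 0.85 (SE 0.25). The chemokine Cxcl10 was low, at 21.8 ± 2.29 and 11.9 ± 5.28, but its 5 LPD values were all above the NPD values (log2 fold change 0.95, SE 0.40). Cflar, which blocks caspase activation at death receptors, went the other way at 128 ± 9.66 and 168 ± 15.7, and its 5 LPD values were all below the NPD values (log2 fold change -0.38, SE 0.14). The cytokine genes Il6 and Ccl5 were listed at 0 in at least 1 line and reached no more than 5.95 and 1.95. Others of the list were high in a single line, with Cxcl5 at 210 and Vcam1 at 141 in NPD line 15 and Ptgs2 at 630 in LPD line 6. With depth as a covariate, Cxcl10 and Cflar no longer had an unadjusted p under 0.05.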

How the data were processed

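RNA sequencing of 10 mouse ESC lines was used, 5 LPD and 5 NPD. The authors deposited 1 table of normalized signal, an estimated count per gene and line. Per the labels and methods, reads were trimmed with cutadapt and quantified with Salmon on GRCm38 (Ensembl 88) transcripts, and transcripts were tested with sleuth 0.30.0. The name of the table says that DESeq2 normalized it. How transcripts were summed to genes is not given in the sources used here. No column was left unmapped.

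Low values were examined for steps of 1 read. Per line, 66.5% to 72.7% of them fell on such steps within a tolerance of 0.15, too few to recover whole reads, so no count model was used. Among genes with 1 annotated transcript the share was 92.4% to 99.7%, and the step size there converted values into read equivalents.

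Values were tested as log2(value + 1) with limma 3.58.1 (R 4.3.3, trend, no covariate) in 14354 genes with a mean of at least 10, with Benjamini-Hochberg adjustment and thresholds of 0.05 (unadjusted) and 0.1 (adjusted). Single genes were tested by exact permutation over 252 assignments. The script was tested on simulated data. Positions are from GENCODE M21 (19918 of 20206 genes matched), promoters from RefSeq on GRCm38.p6. The remaining steps used pandas 2.3.3 and numpy 2.4.6 under Python 3.11.15, with matplotlib 3.10.9 for plots and scipy 1.17.1.

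The 10 genes and the lists were chosen with earlier results of these data known. Genes named were all 10, every subunit and inhibitor gene, other pathway genes with an unadjusted p under 0.05 or without overlap of the diets, and the 3 genes most like each of the 3 most variable. Tnf, Il6, Ccl5, Cxcl5, Vcam1, Ptgs2, Tnfsf12 and the marker genes named were chosen after their values were seen. Alternatives tried were a pseudocount of 0.5 or 10, no filter, a mean of at least 100, the same total per line, quantile normalization, no trend, robust eBayes, array weights, depth as a covariate and each line left out. Leaving out LPD line 4 and NPD line 15 together was added after seeing the data.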

Additional observations from a re-analysis of the deposited data

Results flagged for a closer look

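Relb in LPD line 6, at a normalized value of 646, was the 1 value that stood apart within its diet among the 20 groups of 5 lines examined for the 10 genes. Its gap to the next LPD line, LPD line 40 at 344, was 0.796 of the range of the LPD lines, above the critical value of 0.71. About 1 in 20 such groups is marked by chance. LPD line 6 also had the highest value of the series for Nfkb1, Nfkb2, Rela, Nfkbia, Nfkbie and Tnfaip3, and its keratin genes Krt8 and Krt18 summed to 7631, against at most 2134 in the other lines. Which cells held these keratin transcripts was not measured, and any link to its Relb value was not tested. Without this line the log2 fold change of Relb was 0.74, and the SD of its log2 values among the LPD lines was 0.17, against 0.51 with it.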

How the results depend on the processing

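In 21 alternatives, all 10 genes (8 of 8 at a mean of at least 100, which leaves out Tnfaip3 and Map3k14) kept a log2 fold change above 0. Relb, Nfkbia and Tnfaip3 had an unadjusted p under 0.05 in each alternative that tested them, with log2 fold changes of 0.74 to 1.11, 0.35 to 0.50 and 1.08 to 1.52, and adjusted p of 0.539 to 1.00, 0.161 to 1.00 and 0.187 to 1.00 (limma). When single lines were left out, the genes with an unadjusted p under 0.05 numbered 3 to 6: without LPD line 1, Nfkb1, Nfkb2 and Nfkbie were added, and without LPD line 40, Nfkb2, Rela and Birc3 (3.09% and 3.69% of all genes were then higher). Genes without overlap of the diets then numbered 0 to 2, with 1 without LPD line 1, 2 without LPD line 40 and 2 without NPD line 21 (1.01%, 1.51% and 0.954% of all genes), and 1 (Relb) with the same total per line (0.390% of all genes). Pathway genes lower in LPD numbered 2 to 4 with a line left out, 4 of them without LPD line 1 (2.41% of all genes). They numbered 1 with depth as a covariate (1.92% of all genes) and 1 without LPD line 4 and NPD line 15 together (1.78%). The 1 under depth was Tnfsf12, neither Rnf31 nor Cflar. Tank, Zc3h12a and Cxcl10 lost an unadjusted p under 0.05 there too, as did Rnf31, Tank and Zc3h12a without the pair of lines. Among the alternatives that tested them, Tank, Zc3h12a and Cxcl10 were called in 11 of 21, 12 of 21 and 14 of 20. Beyond the settings without LPD line 1 or LPD line 40, 7 further values of Nfkb2, Nfkbie and Map3k14 came under the threshold of 0.05. Rescaling to the same total changed the split of all genes from 408 higher and 313 lower to 295 and 439, and no filter to 472 and 549, while the median of all genes moved by at most 0.03. No paired analysis was possible because the diets share no line numbers. The lines left out one at a time include LPD lines 4, 6 and 40, whose lower depth limits the precision of Tnfaip3, Birc3 and Map3k14, the genes on the fewest reads.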
